A study of Homo sapiens with 2 samples.

Results

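CXCR4 and 7 genes of the chemokine system, namely ACKR3, CXCL1, CXCL2, CXCL3, CXCL8, CXCL16 and CCL20, were followed probe set by probe set after siRNA transfection of HCT116, an established line of human colorectal carcinoma cells. A probe set is the group of short array probes that reports 1 transcript. All probe sets whose single platform gene symbol was 1 of these 8 names were taken, which gave 15 of the 54675 probe sets on the array. The 2 groups were cells given siRNAs against JMJD1A and JMJD1B together (here the double-siRNA array) and cells given a control siRNA (the control array), with total RNA taken 2 days after transfection. JMJD1A and JMJD1B are older names of KDM3A and KDM3B, enzymes that remove methyl groups from lysine 9 of histone H3. Each group was 1 array of 1 sample of this single line, so no value below has a replicate error, a test or a p-value. The genes were selected on ratios of these same arrays, those of CXCR4 and CXCL8 among them, together with their family, so their differences are a description of these 2 samples.

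Chemokines are small secreted proteins that guide cell movement through receptors coupled to G proteins. CXCR4 is the signalling receptor for CXCL12 and is known in colorectal and other carcinomas for its part in migration and spread, and its gene is a known target of the hypoxia-inducible factors (HIF). ACKR3 is an atypical receptor that takes up CXCL12 and CXCL11. CXCL1, CXCL2, CXCL3 and CXCL8 attract neutrophils through CXCR2, with CXCL8 also acting on CXCR1. They are well-known targets of the transcription factor NF-kB. CXCL16 is made as a membrane-bound ligand of CXCR6 and is shed by ADAM proteases, and CCL20 is the ligand of CCR6.

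The promoters of CXCR4 and CXCL8, the 2 members at least 2-fold higher on the double-siRNA array, are shown so that their letters can be set beside those of the other members. No link between these letters and the signals was tested. RefSeq gave a promoter, 250 bases before to 50 after the annotated gene start on GRCh38.p14, for 6 of the 8 genes. The CXCR4 promoter lies at chr2:136118100-136118399 on the minus strand and the CXCL8 promoter at chr4:73740319-73740618 on the plus strand. Capitals mark GCGTG, a core letter string of HIF motifs, in CXCR4, and TGACTCA, an AP-1-type motif, followed by GGAATTTCC, an NF-kB-type motif, in CXCL8.
CXCR4: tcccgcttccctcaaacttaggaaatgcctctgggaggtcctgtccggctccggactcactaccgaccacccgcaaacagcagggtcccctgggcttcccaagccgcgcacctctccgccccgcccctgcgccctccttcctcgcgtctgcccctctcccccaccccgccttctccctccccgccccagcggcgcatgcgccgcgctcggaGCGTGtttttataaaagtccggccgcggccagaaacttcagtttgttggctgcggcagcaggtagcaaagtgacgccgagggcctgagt
CXCL8: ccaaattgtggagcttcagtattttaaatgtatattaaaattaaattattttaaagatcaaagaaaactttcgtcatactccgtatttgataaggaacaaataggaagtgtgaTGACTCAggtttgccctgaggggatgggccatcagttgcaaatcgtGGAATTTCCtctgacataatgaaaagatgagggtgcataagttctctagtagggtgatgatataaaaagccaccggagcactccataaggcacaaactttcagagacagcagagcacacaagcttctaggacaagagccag

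The motifs searched on both strands were GGAATTTCC, TGACTCA, and ACGTG or GCGTG. Counted from the gene start as 0, the CXCR4 match to GCGTG lay at -39 to -35. The HIF core is so short that 48.4% of all 35116 RefSeq promoters hold a match, so it is common. In CXCL8 the AP-1-type match lay at -137 to -131 and the NF-kB-type match at -91 to -83, strings found in 4.95% and 0.461% of all promoters. These shares are for the exact strings on either strand, not for AP-1 or NF-kB sites in general. Neither GGAATTTCC nor TGACTCA was found in the CXCR4 window, which says only that these letters are not in those 300 bases. Other forms of NF-kB or AP-1 site were not searched. A match is a description of letters, and binding was not measured here.

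**Figure D1:**
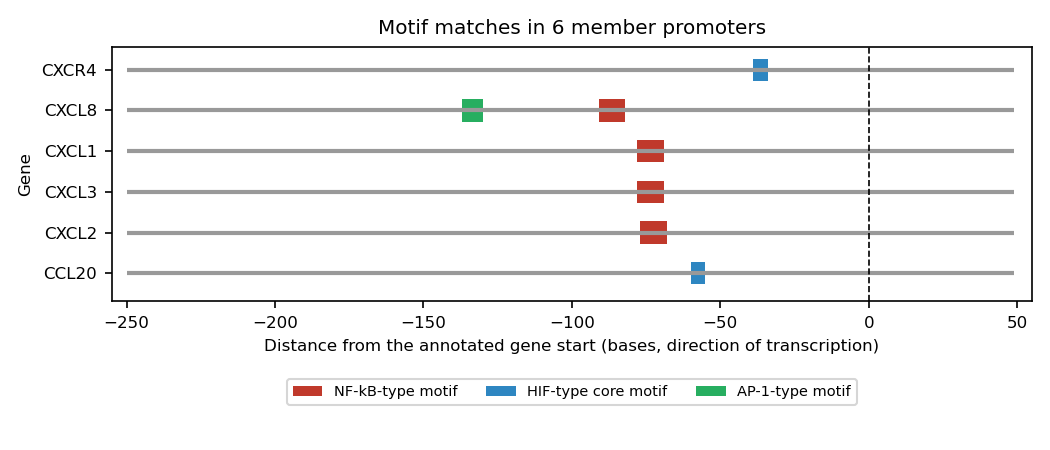
Motif matches in the RefSeq promoters of 6 member genes, with distance from the annotated gene start in bases on the horizontal axis and genes on the vertical axis. Bars stand for matches on either strand; CXCL8, CXCL1, CXCL3 and CXCL2 each have 1 NF-kB-type match between -91 and -69, and the AP-1-type match is in CXCL8.

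CXCL1, CXCL2 and CXCL3 hold the same 9 letters as CXCL8 near the gene start, and the windows below show them in capitals with 20 bases on each side. They come from chr4:73740458-73740506 (plus strand) for CXCL8, chr4:73869295-73869343 (plus strand) for CXCL1, chr4:74038739-74038787 (minus strand) for CXCL3 and chr4:74099244-74099292 (minus strand) for CXCL2, all on GRCh38.p14.
CXCL8: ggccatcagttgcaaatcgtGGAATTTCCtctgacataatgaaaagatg
CXCL1: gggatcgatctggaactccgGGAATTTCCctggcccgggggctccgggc
CXCL3: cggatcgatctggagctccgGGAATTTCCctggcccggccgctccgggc
CXCL2: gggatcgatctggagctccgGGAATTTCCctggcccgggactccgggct
Of the 49 bases, CXCL1 and CXCL3 share 45, CXCL1 and CXCL2 share 41, and CXCL8 shares 22 with CXCL1 and 20 with each of the others. The windows were cut on GGAATTTCC and paired without gaps, so 9 of the shared bases are identical by construction. Over the promoters paired the same way, CXCL8 matched 25.8% of bases in CXCL1, 23.3% in CXCL3 and 25.9% in CXCL2. CXCL1 matched 68.7% in CXCL3 and 43.8% in CXCL2. Without gaps, an inserted or deleted base puts all bases beyond it out of step, so these shares and counts can be too low. The CXCL2 letters just past GGAATTTCC are out of step with those of CXCL1 in this way. The 43.8% is therefore no measure of how far these promoters differ, and the shares do not rank the genes by likeness. The 300-base CXCL8 promoter has 39.3% G and C, against 66.3% in CXCL1, 65% in CXCL2 and 64.3% in CXCL3. CCL20 has a HIF core match on the other strand at -60 to -56 and holds neither GGAATTTCC nor TGACTCA on either strand. Other forms of NF-kB or AP-1 site were not searched, so their absence from CCL20 was not shown.

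The deposited values are MAS5 signals, a linear brightness for each probe set. A probe set was called measured if its mean log2 signal over both arrays reached the median over probe sets other than controls, which was 50.4. This held for 9 of the 15 member probe sets and for 6 of the 8 genes, all but ACKR3 and CCL20. Of the 9, 5 were at least 2-fold higher on the double-siRNA array, where 8.89% of all 27307 measured probe sets were, and 0 were at least 2-fold lower, where 10.4% of all were. All 5 belonged to CXCR4 or CXCL8, and 1 of them, a CXCR4 probe set, had a control signal under the filter. With both arrays required to reach the filter, 4 remained. Log2 ratios are double-siRNA minus control, and the SD of 0.53 between probe sets of 1 gene, over 6192 genes, is used below as the only yardstick of scatter, although it covers probe behaviour and not the spread between cultures.

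The receptor CXCR4 was higher on the double-siRNA array by each of its 3 probe sets, which disagreed in size. Probe set 217028_at read 1681 on the double-siRNA array and 97.4 on the control array, a log2 ratio of 4.11 or 17.3-fold. Probe set 211919_s_at read 796 on the double-siRNA array and 164 on the control array, a log2 ratio of 2.28 or 4.86-fold. Probe set 209201_x_at read 595 on the double-siRNA array and 45.2 on the control array. That control signal lay under the filter, so this probe set gave a difference of at least 11.8-fold against the filter, a bound that ignores error in the brighter value. The mean log2 ratio over the 3 probe sets was 3.32 with this one at its bound, and 3.37 with its signals as deposited. Each of the 3 was more than 4 times the probe-set SD, and their own range, 2.28 to 4.11, was also wider than that SD. Among all measured probe sets, 217028_at ranked 7th and 211919_s_at 163rd from the top, and by its brightest probe set CXCR4 ranked 4th of 12561 measured genes.

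ACKR3, the other CXCL12 receptor in the set, was not measured by any of its 3 probe sets, and these gave no common direction. Probe set 232746_at read 7.96 on the double-siRNA array and 14.7 on the control array. Probe set 1559114_a_at read 2.66 on the double-siRNA array and 26.4 on the control array, while 212977_at read 5.87 on the double-siRNA array and 1.57 on the control array. All 6 signals lay under the filter, where 49.2% of 27306 probe sets differed at least 2-fold in one direction or the other, so no difference is given for ACKR3.

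CXCL8, the neutrophil chemoattractant also called interleukin-8, had the largest difference of the 5 measured chemokines in the set, and both of its probe sets were higher on the double-siRNA array. Probe set 202859_x_at read 1015 on the double-siRNA array and 308 on the control array, a log2 ratio of 1.72 or 3.30-fold. Probe set 211506_s_at read 137 on the double-siRNA array and 51.0 on the control array, a log2 ratio of 1.43 or 2.69-fold. The ratios of the pair differed by less than the probe-set SD, and each was more than 2 times that SD. The control signal of 211506_s_at stood just above the filter of 50.4, which limits its ratio. By the brighter probe set, 216 measured genes, or 1.72%, had a higher log2 ratio than CXCL8. Both probe sets carry a suffix, _x_at or _s_at, that the array maker gives to probe sets that can match more than 1 transcript, and no other CXCL8 probe set was on the array.

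The other neutrophil chemoattractants differed by less than 2-fold, in both directions. CXCL1 read 74.5 on the double-siRNA array and 94.5 on the control array, a log2 ratio of -0.34. CXCL3 read 115 on the double-siRNA array and 87.3 on the control array, a log2 ratio of 0.39. Both differences were smaller than the probe-set SD. CXCL2 was measured by 1 of its 3 probe sets, 209774_x_at, which read 41.4 on the double-siRNA array and 64.6 on the control array. Its mean signal of 51.7 stood just above the filter and its signal on the double-siRNA array lay under it, so that it was at least 1.28-fold lower against the filter, a log2 value of -0.36 that is within the probe-set SD. As deposited, its log2 ratio was -0.64. Among measured probe sets with a mean signal under 2 times the filter, 22.3% differed at least 2-fold in one direction or the other. The other CXCL2 probe sets lay under the filter and ran the other way, with 230101_at at 29.8 on the double-siRNA array and 14.0 on the control array and 1569203_at at 1.34 on the double-siRNA array and 1.14 on the control array. The log2 ratio of CXCL8 stood 2.06 above that of CXCL1 and 1.33 above that of CXCL3. All 4 promoters hold GGAATTTCC.

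**Figure D2:**
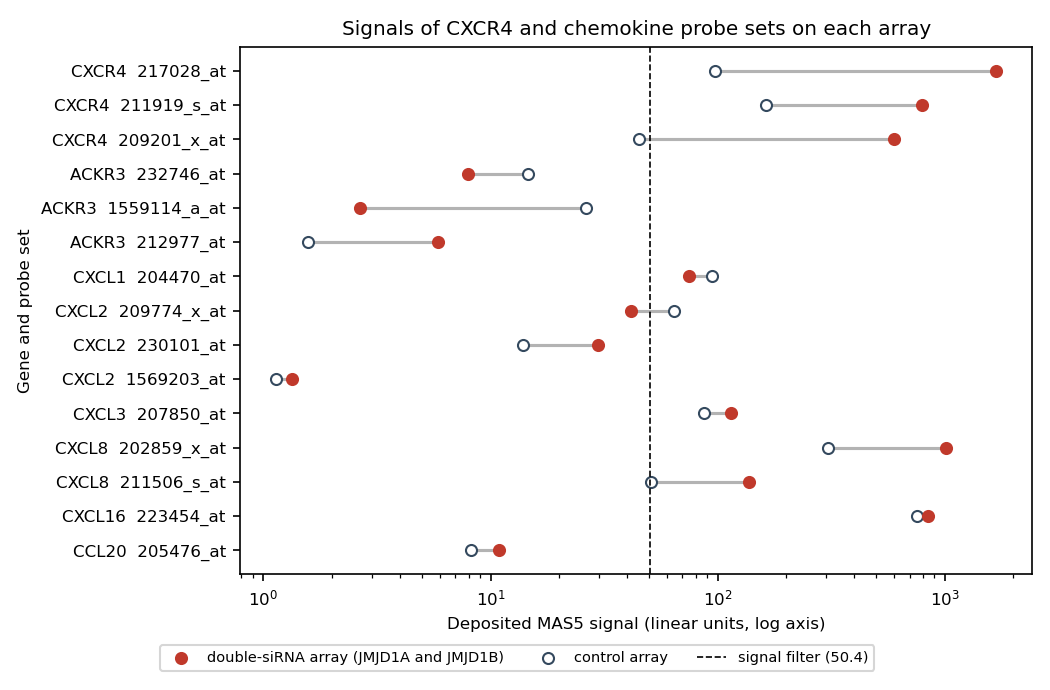
Deposited MAS5 signal on a log axis for the 15 member probe sets, in rows, with the double-siRNA array as filled and the control array as open points and the filter of 50.4 as a dashed line. The 3 CXCR4 rows show the filled point far to the right of the open one, the 2 CXCL8 rows less so, and all ACKR3 and CCL20 points lie left of the line.

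CXCL8, CXCL1, CXCL3 and CXCL2 belong to a run of 9 neighbouring protein-coding chemokine genes on chromosome 4, in the order CXCL8, CXCL6, PF4V1, CXCL1, PF4, PPBP, CXCL5, CXCL3 and CXCL2 in the RefSeq annotation. The 5 genes of this run that are not in the set had 7 probe sets, none of which was measured. Their signals ran between 0.646 and 53.0 over both arrays. CXCL8 was thus the only gene among the 4 measured in the run to reach 2-fold, and the 5 genes outside the set gave no measured difference to set beside it. CXCR4, ACKR3 and CCL20 lie on chromosome 2 and CXCL16 on chromosome 17.

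CXCL16, the ligand of CXCR6, differed by less than the probe-set SD, and CCL20, the ligand of CCR6, was not measured. CXCL16 read 840 on the double-siRNA array and 755 on the control array, a log2 ratio of 0.15 from its single probe set. CCL20 read 10.8 on the double-siRNA array and 8.20 on the control array, under the filter on both. By gene, 2 of the 6 measured members passed 2-fold upward, against 8.91% of all measured genes, and 0 of 6 downward, against 8.53%. The median log2 ratio of the 6 was 0.27, and that of all measured genes was 0.04.

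**Figure D3:**
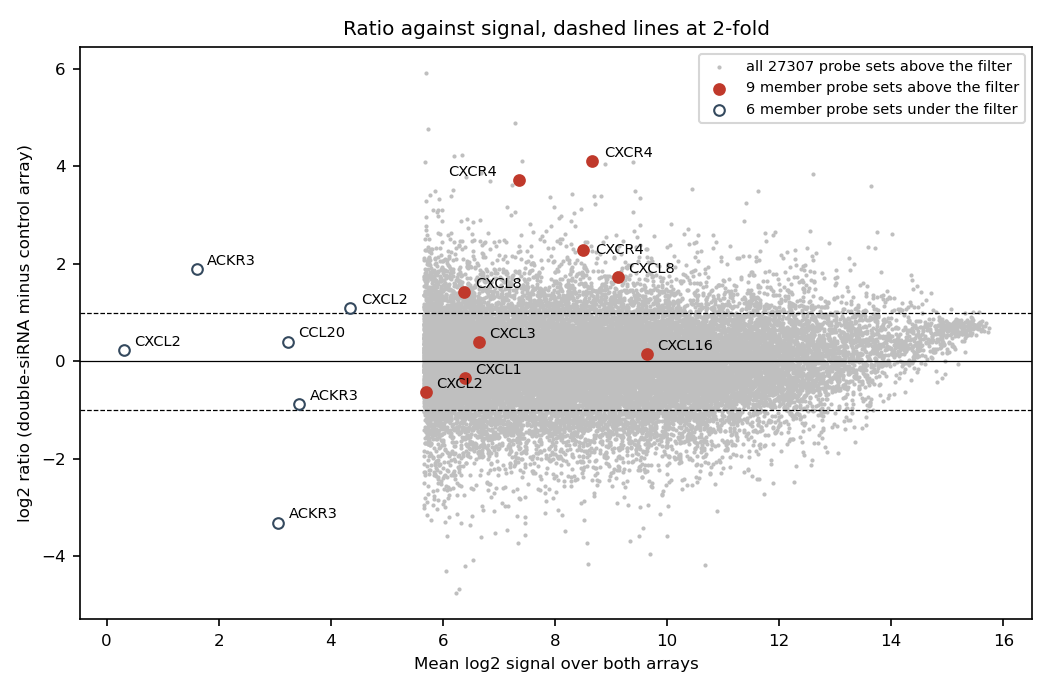
Log2 ratio of the double-siRNA array over the control array against mean log2 signal, with 27307 measured probe sets in grey, the 9 measured member probe sets filled and the 6 under the filter open. The CXCR4 points lie between 2.28 and 4.11 and the CXCL8 points at 1.43 and 1.72, above the dashed 2-fold line, while CXCL1, CXCL2, CXCL3 and CXCL16 lie between -0.64 and 0.39 (the CXCL2 point and 1 CXCR4 point have 1 signal under the filter).

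The receptors and ligands that the members pair with were mostly not measured in these cells. Here and in the next sentences genes are named for their known pairing. CXCL12, the ligand of CXCR4, had 2 probe sets with signals of 3.83 to 55.8 on the double-siRNA array and 2.71 to 34.3 on the control array, neither of them measured. CXCR1 read 15.5 on the double-siRNA array and 30.1 on the control array, and CXCR2 read 3.35 on the double-siRNA array and 4.78 on the control array, so no receptor of CXCL8 was measured. CCR6, the receptor of CCL20, read 17.0 on the double-siRNA array and 27.8 on the control array. CXCR6, the receptor of CXCL16, was measured by 1 of 2 probe sets, at 57.2 on the double-siRNA array and 52.9 on the control array. MIF, a cytokine that also binds CXCR4, read 34064 on the double-siRNA array and 20226 on the control array, a log2 ratio of 0.75, while its receptor CD74 was not measured by any of 3 probe sets.

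Among the rest of the chemokine family, few genes were measured and none reached 2-fold. Of all measured genes 17.4% did so in one direction or the other, so with so few genes this sets the family apart from nothing. Of 38 other ligands, 33 had a probe set and 1 was measured, CCL28, a mucosal chemokine, at 93.1 on the double-siRNA array and 62.9 on the control array (log2 ratio 0.57). Of 21 other receptors, 19 had a probe set and 2 were measured. The one with the larger ratio was ACKR2, a scavenger of CC chemokines, at 58.4 on the double-siRNA array and 47.3 on the control array (log2 ratio 0.30). Its 2 other probe sets lay under the filter.

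Of 25 measured genes for receptor signalling, receptor trafficking and ligand processing, 3 passed 2-fold upward (12%, against 8.91% of all genes), 1 passed it downward (4%, against 8.53%) and 21 lay between. GRK5, a kinase that phosphorylates activated G protein-coupled receptors, read 1208 on the double-siRNA array and 320 on the control array (3.77-fold), and log2 ratios over its 3 measured probe sets ran between 0.59 and 1.92. ADAM17, a sheddase of membrane-bound proteins, read 5947 on the double-siRNA array and 2075 on the control array (2.87-fold), and its 3 probe sets had log2 ratios of 1.25 to 1.52. SDC4, the cell-surface heparan sulphate proteoglycan syndecan-4, read 6877 on the double-siRNA array and 2509 on the control array (2.74-fold) by 1 probe set. All measured probe sets of these 3 genes were higher on the double-siRNA array, although 1 of GRK5 was under 2-fold. IL17RA, a subunit of the interleukin-17 receptor, read 281 on the double-siRNA array and 586 on the control array (2.08-fold lower), but its other measured probe sets had log2 ratios of -0.39, 0.05 and 0.41. The list median was -0.03.

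Of 18 measured NF-kB components, 2 passed 2-fold upward and 2 downward (11.1% each), shares near the 8.91% and 8.53% of all measured genes, with a median of 0.07. CHUK, the IKK-alpha kinase, read 833 on the double-siRNA array and 3748 on the control array (4.50-fold lower). TRAF3, an adaptor that promotes degradation of the kinase encoded by MAP3K14, read 655 on the double-siRNA array and 1606 on the control array (2.45-fold lower), while its other probe set had a log2 ratio of 0.50. MAP3K14 itself, also called NIK, read 209 on the double-siRNA array and 101 on the control array (2.06-fold higher). CYLD, a deubiquitinase that restrains NF-kB signalling, read 456 on the double-siRNA array and 224 on the control array (2.04-fold higher), with its other measured probe sets at 0.07 and -0.68. Apart from CHUK and MAP3K14, which had 1 probe set each, the components at 2-fold were therefore not matched by their other measured probe sets.

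Of 17 measured NF-kB targets other than chemokines, 0 passed 2-fold upward, 1 passed it downward and 16 lay between, with a median of 0.16, where 8.91% of all measured genes passed upward and 8.53% downward. The 1 at 2-fold was TNFAIP2, a protein induced by tumour necrosis factor, at 117 on the double-siRNA array and 320 on the control array (2.75-fold lower). Its other probe set lay under the filter and ran the other way, at 36.1 on the double-siRNA array and 28.6 on the control array. The highest log2 ratio in this list was 0.71, that of IER3, an early response gene. CXCL8 stood at 1.72 but was selected on ratios of these same arrays, so nothing is drawn from the gap. IER3 was named after its value was seen.

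**Figure D4:**
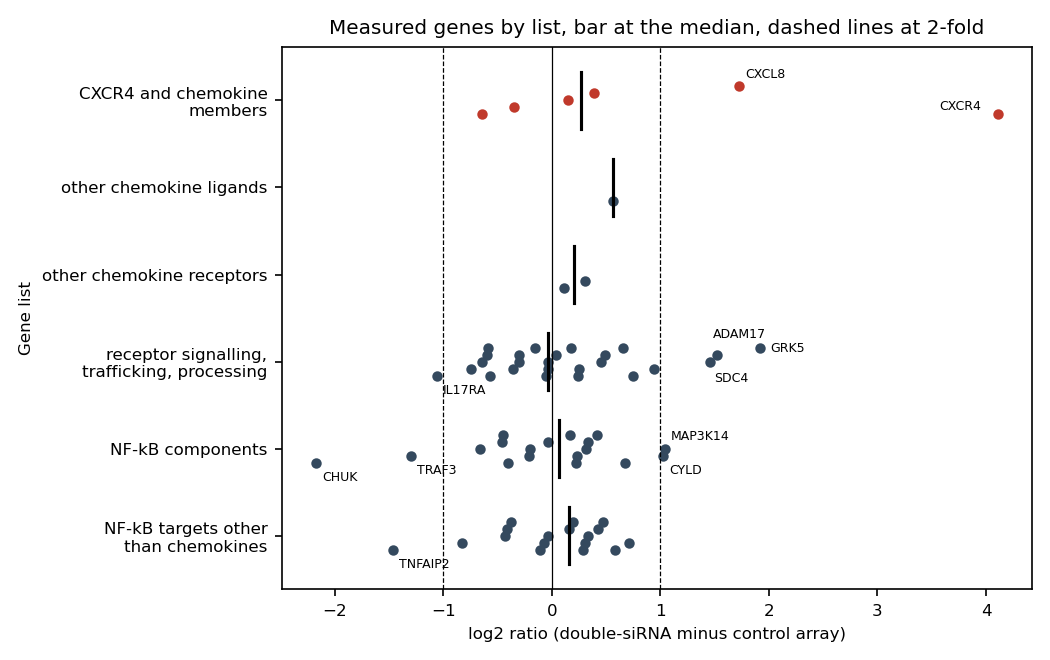
Log2 ratio of each measured gene, double-siRNA array minus control array, in 6 gene lists in rows, with a bar at each list's median and dashed lines at 2-fold. Names are given for genes past 2-fold; CXCR4 at 4.11 and CXCL8 at 1.72 lie apart from the other 4 measured members, and no NF-kB target outside the chemokines passes the upper line.

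The measured genes with a log2 ratio nearest to the 4.11 of CXCR4 were FOS (4.08) and LEMD1 (4.06), a likeness in 1 number, since there were 2 arrays. The 4.11 is that of the brightest CXCR4 probe set. Another of its probe sets stood at 2.28, so which genes are nearest depends on the probe set used. FOS, a subunit of the AP-1 factor, read 2766 on the double-siRNA array and 164 on the control array. By its deposited signals COPB2-DT, a non-coding transcript, came next, but its control signal of 16.9 lay under the filter. It is therefore given only as at least 6.26-fold higher, and its nearness to CXCR4 is not known.

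The siRNA targets and the cell identity were checked on the same arrays. KDM3B read 496 on the double-siRNA array and 3031 on the control array (6.11-fold lower), while KDM3A read 3323 on the double-siRNA array and 3884 on the control array, a log2 ratio of -0.22 that lay within the probe-set SD. Lowering of KDM3A transcript was thus not shown, and the name double-siRNA array stands for the siRNAs given, per the labels, not for loss of both transcripts. Epithelial markers were measured for 8 of 9 genes, 2 of them at least 2-fold higher (25%, against 8.91% of all genes), KRT19 (2.39-fold) and CDH1 (2.16-fold). KRT20 (log2 ratio -0.99) and CDX2 (-0.46) stood lower, and the list median was 0.28. Since CXCR4 is abundant in leukocytes, their markers were examined too, and 4 of 10 were measured, with a summed signal of 454 on the double-siRNA array and 523 on the control array. The largest difference among them was that of CD79A, a B-cell receptor component, with a log2 ratio of -0.63. Without CD79A the sum was 241 on the double-siRNA array and 196 on the control array, with CSF1R at 0.57 and ITGAM at -0.01 on the log2 scale and CD3E at least 1.30-fold higher against the filter. The part of these markers in the CXCR4 difference was not tested. The pan-leukocyte marker PTPRC was not measured by any of its 5 probe sets, whose signals lay between 3.20 and 29.6 on the double-siRNA array and between 0.570 and 8.22 on the control array. Endothelial markers were measured for 1 of 7 genes (PECAM1, 0.44 on the log2 scale) and fibroblast markers for 2 of 9 (COL1A1 the larger, at 0.96). None of these reached 2-fold, where 17.4% of all measured genes did in one direction or the other.

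The ratios depend on how the arrays are set level. The authors' scaling gave both arrays the same mean signal after trimming, but the 18 hybridization control probe sets all read higher on the double-siRNA array, with a median log2 ratio of 0.61. Set level on these controls, CXCR4 would stand at 3.50, CXCL8 at 1.11, CXCL3 at -0.22, CXCL16 at -0.46, CXCL1 at -0.95 and CXCL2 at -1.25. By their brightest probe sets CXCR4 and CXCL8 would thus remain at least 2-fold higher, and CXCL3 and CXCL16 would change sign. By probe set, 4 members would be at least 2-fold higher, against 5 as deposited, since the dimmer CXCL8 probe set would fall under 2-fold. The CXCL2 value rests on a signal under the filter, and on that scale 27.7% of all measured genes would be at least 2-fold lower. The order of the genes is the same on that scale by construction.

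**Figure D5:**
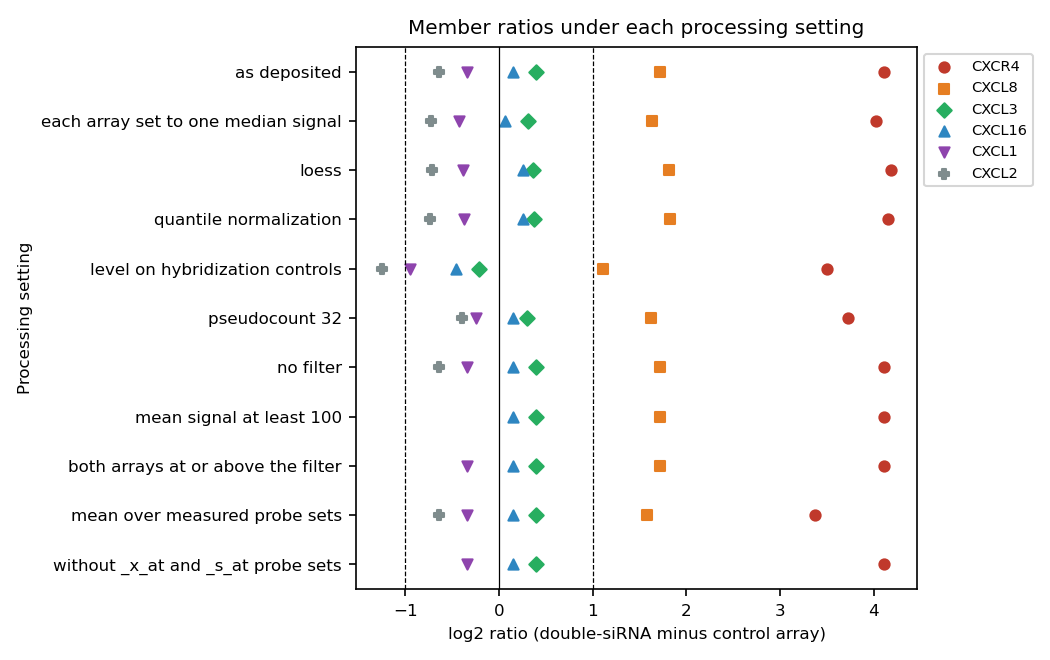
Log2 ratio of the 6 measured members, double-siRNA array minus control array, in columns of marks, under the deposited values and 10 other processing settings in rows, with dashed lines at 2-fold. CXCR4 lies between 3.37 and 4.19 and CXCL8 between 1.11 and 1.82 wherever they are measured; CXCL8 has no mark without _x_at and _s_at probe sets.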

How the data were processed

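Total RNA of 2 samples was measured on 1 array each, with biotin-labelled material from 0.5 ug of RNA, per the labels. The authors deposited a linear signal intensity for each probe set, for which the submitters' processing notes name MAS5 without a version. With 2% of probe sets trimmed from either end, both arrays had a mean of 499.9, so each had been scaled as a whole. Genes were named from the platform annotation (41091 probe sets with 1 symbol, 1801 with several, 11721 with none, besides 62 control probe sets). Of the former, 41037 were found in the RefSeq gene table and 0 were renamed. The log2 of each signal was used without a pseudocount, and each gene was represented by its brightest measured probe set. No test was possible, and precision is limited by the number of arrays. Besides the members and the siRNA targets, the genes named were up to 4 of each list with the largest change at 2-fold or, where none reached it, the 1 with the largest change, except where a known pairing or chromosomal position is given as the reason and for other cell type markers, chosen after their values were seen, and the 3 genes nearest to CXCR4. Members and lists were chosen with earlier results of these data known. The 12 alternatives covered scaling, pseudocount, filter, probe-set rule and fold threshold. The probe and siRNA sequences were not used here. Calculations used Python 3.11.15, numpy 2.4.6, pandas 2.3.3 and statsmodels 0.14.6. The filter, the gene-level ratios and the 2-fold call were run on simulated arrays, with noise set smaller than the probe-set SD. The scaling alternatives, the bounds against the filter, the gene lists and the motif search were not part of that run.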

Additional observations from a re-analysis of the deposited data

Results flagged for a closer look

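Outside the gene comparison, the 18 hybridization control probe sets, which report transcripts added in the array maker's procedure and not RNA of the cells, read higher on the double-siRNA array, with log2 ratios of 0.40 to 0.71 and a median of 0.61. They stand out because the deposited scaling gives both arrays 1 trimmed mean, and a shift of that size is larger than the ratios of CXCL3 (0.39) and CXCL16 (0.15). The part of this shift in the member ratios was not tested.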

How the results depend on the processing

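No paired analysis was possible because each group had 1 array. Taken by gene and not by each probe set, CXCR4 and CXCL8 stayed at least 2-fold higher under every alternative in which they were measured. On the log2 scale CXCR4 lay between 3.37 and 4.19 and CXCL8 between 1.11 and 1.82. Without _x_at and _s_at probe sets CXCL8 and CXCL2 had no value (nor had CXCL1 and CXCL2 at a mean signal of at least 100, nor CXCL2 with both arrays at or above the filter), and 1 member probe set and 1 member gene were at least 2-fold higher. With arrays level on the hybridization controls, 4 member probe sets were at least 2-fold higher, against 5 as deposited. There 1 member probe set and 1 member gene were at least 2-fold lower (CXCL2, with a signal under the filter). At a 1.5-fold threshold 1 member probe set and 1 member gene were at least 1.5-fold lower, where 19.5% of all measured genes were. With no filter 1 member probe set was at least 2-fold lower. Of all measured genes, 270 were higher and 3483 lower by 2-fold on those controls, against 1119 and 1072 as deposited, so that the median of all genes was -0.57 there.

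Of all measured genes, 21.7% were higher and 19.5% lower at 1.5-fold, and 2.28% and 2.26% at 3-fold. On the hybridization controls 2.15% were higher and 27.7% lower, and the list counts below are to be read beside these shares. In the list of receptor signalling, trafficking and processing, with 25 measured genes, 1 gene was higher and 6 were lower on the hybridization controls. In that list 6 were higher and 5 lower at 1.5-fold, and 1 was higher and 0 lower at 3-fold. The count of lower genes was 0 after loess, after quantile normalization and with a pseudocount of 32, and 2 without _x_at and _s_at probe sets. Among NF-kB components, 0 were higher with arrays set to one median, with the pseudocount of 32 and on the hybridization controls, where 6 were lower. The counts were 1 higher and 1 lower by the mean of probe sets, 1 and 1 without _x_at and _s_at probe sets, and 0 and 1 at 3-fold. Among NF-kB targets, 4 were lower on the hybridization controls, 2 with no filter and 2 by the mean of probe sets, and 0 at 3-fold, while at 1.5-fold 1 was higher and 2 were lower. With no filter, 10 of 33 other ligands were higher and 7 lower, and 4 of 19 other receptors were higher and 4 lower. Of all 19775 genes in that setting, 16.1% were higher and 12.7% lower. That setting admits dim probe sets. Apart from these, the cause of each move was not tested. Of the 168 comparisons of a count with its alternative, 131 stayed within 1.5 times. Counts of 0 in both settings were taken as unchanged. For other ligands and other receptors, with few measured genes, this was so in every setting but that with no filter. The total is therefore no measure of how stable the results are. Signal near the filter limits CXCL1, CXCL2, CXCL3 and the dimmer CXCL8 probe set, and ACKR3 and CCL20 could not be read.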
